A study of Mus musculus with 56 samples.

Results

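Wnt signalling sets the identity of the hepatocytes around the central vein of the liver lobule, and 10 genes that belong to this pathway or that mark these cells were followed in mouse livers that had lost the microRNA miR-122. The genes were Glul, Oat, Axin2, Lgr5, Tbx3, Lect2, Rnf43, Nkd1, Slc1a2 and Rhbg, taken by name from the RNA-seq table of the series, where each had 1 row among 21888 gene symbols. The table held 14 livers, 1 mouse each, all labelled 129Sv/J by strain background. Of these, 11 came from mice with loxP sites around miR-122, called floxed below. They were uninjected (3 mice) or were taken at day 21 (3 mice), day 45 (3 mice), day 100 (1 mouse) or day 200 (1 mouse) after an AAV8 vector, given into the tail vein, had brought in Cre recombinase from the Ef1a promoter. The other 3 came from a separate line that lacks miR-122 from the germline, called knockout below. The Ef1a promoter is active in most cell types, and the uninjected mice had received no vector, so that vector and excision cannot be told apart. In the same way, the mouse line and the lack of miR-122 cannot be told apart in the knockout. The floxed mice were adult when they received the vector, and no ages in weeks were given.

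Endothelial cells of the central vein secrete Wnt ligands and R-spondins, which keep beta-catenin stable in the hepatocytes next to them. There, beta-catenin works with TCF/LEF proteins on the DNA and turns on genes of drug metabolism and of ammonia removal, of which glutamine synthetase is the best known marker. Hepatocytes near the portal vein receive less Wnt signal and carry out urea synthesis and gluconeogenesis. The pathway also turns on its own brakes, among them Axin2, Nkd1 and Rnf43, which are used as readouts of its activity. R-spondins act through receptors such as Lgr5, which hold back Rnf43.

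Levels were given as FPKM, fragments scaled to transcript length and to library size, which allows levels of different genes to be compared. The effective depth, estimated from the lowest values, was 33.1 to 51.2 M (mega) fragments in the floxed livers and 23.4 to 30.2 M in the knockout. In the small RNA libraries of these time points, miR-122 made up 59.2 to 73.3% of microRNA reads in uninjected livers, 8.22 to 13.2% at day 21, 0.383 to 1.23% at day 45, 4.46% in the day 100 liver and 19.1% in the day 200 liver. The microRNA was not measured in the knockout here, and its RNA-seq row was listed at 0 in all 14 libraries, which checks nothing. Aldoa, a well-known target of miR-122 that was chosen after its values were seen, stood at 62.1 to 73.1 FPKM in uninjected livers at 153 to 211 at day 21, at 255 to 397 at day 45 and at 274 and 280.1 in the late livers. Knockout A, B and C had 499.8, 440.2 and 245 FPKM, so that C lay among the injected floxed livers.

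The libraries differed in a way that the labels did not name. Ddx3y, a gene of the Y chromosome, was at 10.1 to 20.8 FPKM in 4 libraries (uninjected B, day 21 C, day 45 C and knockout C) and at no more than 0.036 FPKM in the other 10, and Xist showed the opposite pattern. This is the pattern of male mice in the 4 libraries and of female mice in the other 10, and the labels gave no sex. Each group of 3 thus held 1 library with Ddx3y and 2 without, and both late livers were without. Knockout C also stood apart from its own group: over all tested genes its log2 levels correlated with those of knockout A and B at r = 0.881 and 0.896 and with the floxed libraries at 0.927 to 0.955, whereas A and B correlated at 0.986. Many of the results below, though not all, are given with and without these libraries.

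Across the 4 comparisons with uninjected livers, the clearest changes were rises of Oat and Rhbg and a fall of Tbx3. At day 21, 1 of the 10 genes was called higher (Oat) and 0 lower, where 6.2% of the 11354 tested genes were called higher and 1.42% lower. At day 45, 3 were called higher (Oat, Nkd1 and Rhbg) and 0 lower, against 23.7% and 2.99% of all genes. In the livers of days 100 and 200, taken as 1 group, 3 were called higher (Oat, Nkd1 and Rhbg) and 1 lower (Tbx3), against 28.4% and 3.21%. Without the day 100 liver only Tbx3 was called there (Oat 1.06, Nkd1 0.64 and Rhbg 1.46 on the log2 scale). In the knockout, 1 was called higher (Rhbg) and 2 lower (Lgr5 and Tbx3), against 19.3% and 14.5%. Calls are those of limma on log2(FPKM + 1) at a Benjamini-Hochberg adjusted p below 0.05 over all tested genes. No member passed an unadjusted 0.05 in the lower direction at day 21 or day 45, where 6.52% and 5.5% of all genes did. Members whose mice all lay above the uninjected mice numbered 1 at day 21, 5 at day 45, 5 in the late livers and 1 in the knockout, against 25.2%, 40.5%, 52.9% and 21.1% of all genes, and 1 lay below in the late livers and in the knockout, against 11.6% and 13.3%. The members were thus called at about the rate of the whole table, and the results below concern single genes.

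The median gene was itself shifted, on the log2 scale by 0.06 (day 21), 0.20 (day 45), 0.31 (late) and 0.02 (knockout). Centring each library on its median turned this shift to -0.09 at day 45 and -0.11 in the late livers, and the share of calls that were higher went from 88.8% to 60.2% at day 45 and from 89.8% to 53.8% in the late livers. At day 21 that share went from 81.4% to 70.5%, and in the knockout from 57.2% to 50.5%, or 45.3% under quantile normalization. For this reason changes of members are also given relative to the median gene. All 4 comparisons share the same 3 uninjected livers.

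**Figure D1:**
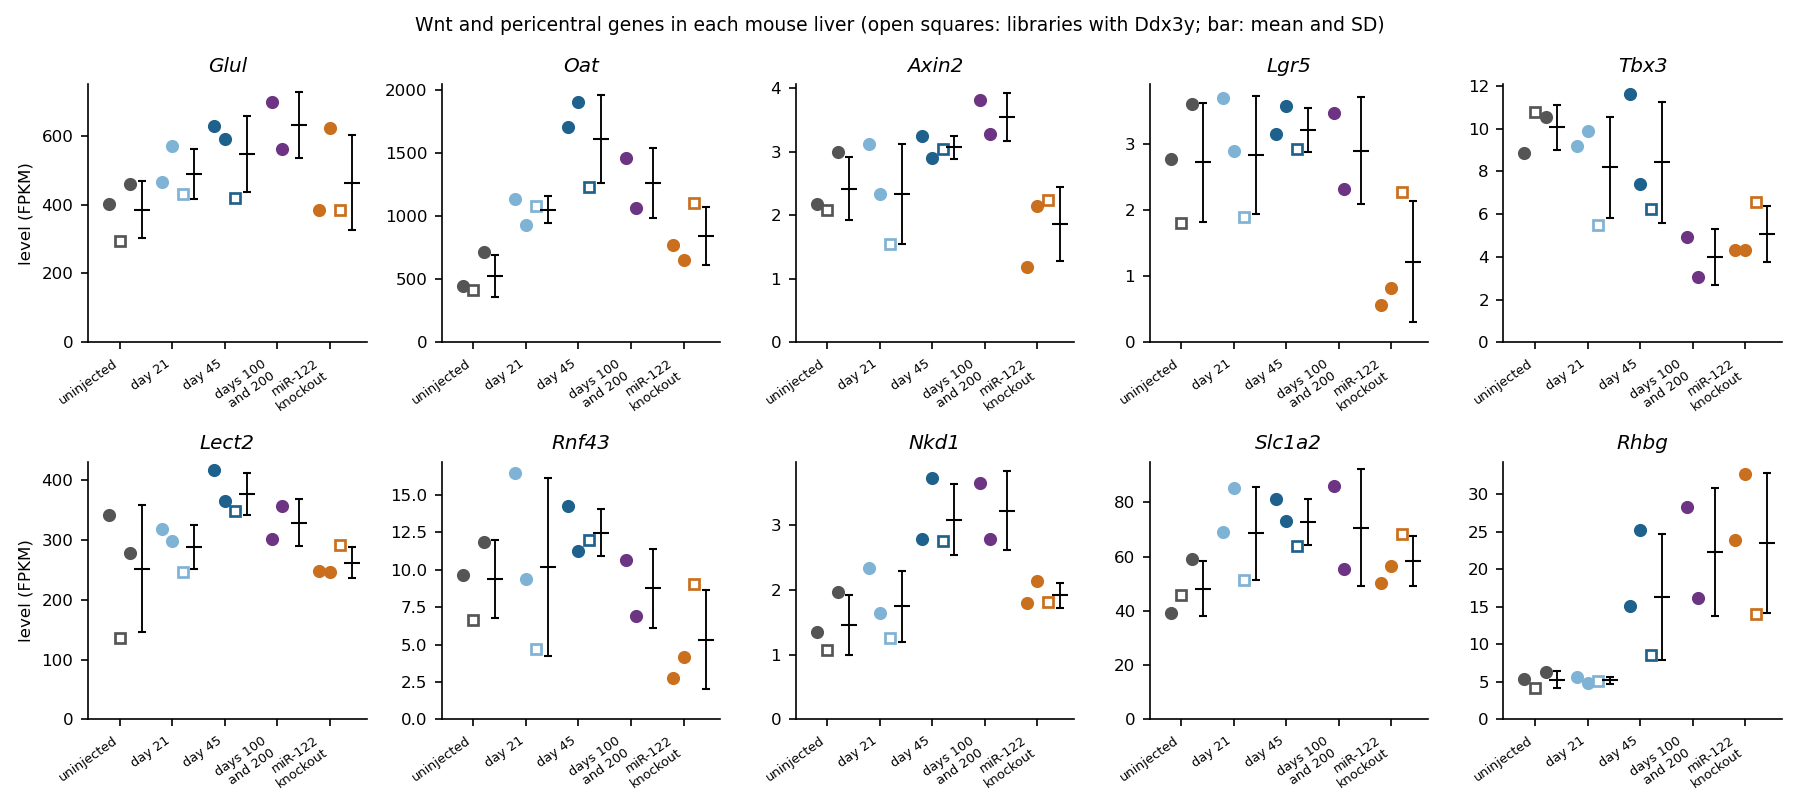
Levels of the 10 genes in each of the 14 livers, in FPKM on linear axes from 0, by group. Each point is 1 mouse, open squares are the libraries with Ddx3y, and bars give the mean and SD (n = 3, or 2 for days 100 and 200). All Oat values at days 21, 45, 100 and 200 lie above the highest uninjected value of 719 FPKM, and Rhbg lies above its uninjected range at day 45, in the late livers and in the knockout.

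The first 4 genes handle glutamate, glutamine and ammonia, the task for which pericentral hepatocytes are best known. Oat encodes ornithine aminotransferase, a mitochondrial enzyme that links ornithine to glutamate, and lies at chr7:139749158-139768081 on the minus strand (mm9). It was the most abundant of the 10 genes. Uninjected mice A, B and C had 449, 412 and 719 FPKM. Day 21 mice had 1140.4, 933 and 1080.3 FPKM, and day 45 mice had 1710.2, 1909 and 1229 FPKM. Every injected mouse was thus above every uninjected mouse. The day 100 liver had 1460.02 and the day 200 liver 1067 FPKM, and knockout A, B and C had 771, 656 and 1103 FPKM, where B lay inside the uninjected range.

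The mean of Oat was 526 ± 168 FPKM (SD, n = 3) in uninjected livers, and the group means were 2.00 (day 21), 3.07 (day 45), 2.40 (late) and 1.60 (knockout) times as high. As a log2 fold change, the day 21 rise came to 1.04 ± 0.27 (SE, limma adjusted p = 0.0355) and the day 45 rise to 1.64 ± 0.27 (adjusted p = 0.00131). The late rise was 1.29 ± 0.30 (adjusted p = 0.00606), and the knockout difference, which was not called, was 0.69 ± 0.27 (adjusted p = 0.0636). The latter was 0.94 without uninjected C (adjusted p = 0.0310), 0.48 without knockout C (adjusted p = 0.139) and 0.32 among libraries without Ddx3y (adjusted p = 0.319), where the ratio of means was 1.22, against 2.68 between the libraries with Ddx3y. At day 45 the change was 1.44 above that of the median gene, and 3.21% of all tested genes had a larger one. The day 45 call held under all 17 alternatives, with changes of 1.35 to 1.88. The day 21 call held under 7 of 17 (adjusted p = 0.0209 to 0.138), so that the rise there, which all 3 mice showed, sat at the edge of the threshold. It was lost when uninjected A or B or any 1 of the day 21 mice was left out (0.88 to 1.12). Among libraries without Ddx3y the day 45 mean was 3.10 times the uninjected mean, and between the libraries with Ddx3y it was 2.98 times.

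Glul encodes glutamine synthetase, which joins ammonia to glutamate and is found in the hepatocytes that border the central vein (chr1:155747075-155756844, plus strand). Uninjected mice had 402, 294 and 458 FPKM, day 21 mice 465, 569 and 429 FPKM, and day 45 mice 627, 591 and 419.8 FPKM. The groups overlapped at both times. The livers of days 100 and 200 had 699 and 562 FPKM, both above the uninjected mice, and the knockout had 385, 623 and 383 FPKM, of which A and C lay inside the uninjected range. No comparison passed the threshold as the authors scaled the values. The log2 fold change was 0.51 ± 0.25 at day 45 (95% interval -0.03 to 1.05, adjusted p = 0.159) and 0.73 ± 0.28 in the late livers (0.12 to 1.33, adjusted p = 0.0645). The late difference passed under quantile normalization (0.93, adjusted p = 0.0348) and was 0.30 under median centring (adjusted p = 0.449). In each of the 4 groups of 3, the library with Ddx3y had the lowest Glul level, at 0.685 to 0.831 times the mean of the other two. Between libraries without Ddx3y the day 45 mean was 1.42 times the uninjected mean, and between those with Ddx3y 1.43 times.

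Rhbg encodes an ammonia channel of the plasma membrane, also restricted to pericentral hepatocytes (chr3:88046796-88058606, minus strand). Its uninjected values of 5.42, 4.13 and 6.37 FPKM stood beside 5.68, 4.84 and 5.12 FPKM at day 21. At day 45 the mice had 15.1, 25.2 and 8.51 FPKM, the day 100 and day 200 livers 28.3 and 16.2 FPKM, and knockout A, B and C 23.9, 32.7 and 14.0 FPKM. These 8 livers lay above all uninjected and all day 21 livers, and in the day 45 group and the knockout the library with Ddx3y was the lowest.

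The log2 fold change of Rhbg was -0.01 ± 0.36 at day 21, with a 95% interval of -0.79 to 0.77. It was 1.35 ± 0.36 at day 45 (adjusted p = 0.0151), 1.85 ± 0.40 in the late livers (adjusted p = 0.00411) and 1.90 ± 0.36 in the knockout (adjusted p = 0.00302). The ratios of means were 3.07, 4.19 and 4.43. In the knockout, 2.47% of tested genes had a larger rise, and the call held under all 17 alternatives, with changes of 1.63 to 2.21. At day 45 it held under 15 of 17 and was lost without uninjected B (1.21, adjusted p = 0.0596) or without day 45 B (0.99, adjusted p = 0.0789). The day 45 mean was 3.42 times the uninjected mean among libraries without Ddx3y and 2.06 times between those with it. The knockout ratios were 4.80 and 3.39.

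Slc1a2 encodes a glutamate transporter that brings glutamate into pericentral hepatocytes and, in the brain, into astrocytes (chr2:102498840-102630941, plus strand). It was at 39.4, 45.9 and 59.3 FPKM in uninjected livers, 69.1, 85.2 and 51.2 FPKM at day 21 and 81.1, 72.9 and 64.0 FPKM at day 45. The day 45 mice lay above the uninjected mice. The late livers had 85.9 and 55.3 FPKM, and the knockout 50.3, 56.5 and 68.3 FPKM. No comparison was called: the log2 fold change was 0.60 ± 0.23 at day 45 (adjusted p = 0.0772), 0.49 ± 0.23 at day 21 (adjusted p = 0.247) and 0.28 ± 0.23 in the knockout (adjusted p = 0.353). Where the fit held only the 2 groups compared, the day 45 difference passed (adjusted p = 0.0375). It was 0.31 under median centring (adjusted p = 0.332) and 0.54 under quantile normalization (adjusted p = 0.169).

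Lect2 encodes a protein that hepatocytes secrete into the blood and is a target of beta-catenin in the liver (chr13:56643821-56649899, minus strand). Uninjected livers had 342, 136 and 278 FPKM, with the low value in the library with Ddx3y. Day 21 livers had 318, 298 and 247 FPKM, day 45 livers 416, 365 and 348 FPKM, late livers 301 and 357 FPKM and knockout livers 247, 247 and 291 FPKM. Only the day 45 mice were all above the uninjected mice, by a log2 fold change of 0.68 ± 0.27 (adjusted p = 0.0895). Without uninjected A the change was 0.95 (adjusted p = 0.0285), and without uninjected B it was 0.28 (adjusted p = 0.340).

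Promoters from RefSeq (build GRCm38.p6, 250 bases before to 50 after the start) were at hand for 7 of the 10 genes, 8 promoters in all since Rnf43 had 2. They were searched on both strands for CTTTGA, the core of the TCF/LEF motif, and for its longer form CTTTGAT, which overlaps it. CTTTGA was in 2 of the 8 promoters, those of Lect2 and Slc1a2, and in 16% of the 32851 promoters of the table. Both also held CTTTGAT, which 3.73% of all promoters held. These 2 promoters are shown with those of Oat and Nkd1, the called genes with a promoter at hand, which held neither form. All are written 5′ to 3′ on the gene's own strand, in lower case, with each CTTTGA or its reverse complement TCAAAG in capitals.
Lect2, chr13:56548489-56548788, minus strand: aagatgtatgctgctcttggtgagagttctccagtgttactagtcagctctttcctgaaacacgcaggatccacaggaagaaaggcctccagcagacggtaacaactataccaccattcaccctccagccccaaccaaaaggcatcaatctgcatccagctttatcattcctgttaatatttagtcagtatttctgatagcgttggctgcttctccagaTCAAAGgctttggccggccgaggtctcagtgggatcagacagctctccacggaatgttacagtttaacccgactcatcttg
Slc1a2, chr2:102706188-102706487, plus strand: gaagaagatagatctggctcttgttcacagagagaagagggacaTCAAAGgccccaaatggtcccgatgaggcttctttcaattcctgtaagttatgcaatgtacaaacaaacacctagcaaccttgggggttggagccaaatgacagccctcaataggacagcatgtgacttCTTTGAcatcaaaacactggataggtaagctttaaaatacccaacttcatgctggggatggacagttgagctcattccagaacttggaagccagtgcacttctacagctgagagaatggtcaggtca
Oat, chr7:132576349-132576648, minus strand: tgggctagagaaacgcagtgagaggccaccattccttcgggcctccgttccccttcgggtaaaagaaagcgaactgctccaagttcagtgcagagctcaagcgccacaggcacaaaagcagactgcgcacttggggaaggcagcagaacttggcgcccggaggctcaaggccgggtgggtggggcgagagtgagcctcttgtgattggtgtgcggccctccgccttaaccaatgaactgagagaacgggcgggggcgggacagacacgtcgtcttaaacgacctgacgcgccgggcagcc
Nkd1, chr8:88527383-88527682, plus strand: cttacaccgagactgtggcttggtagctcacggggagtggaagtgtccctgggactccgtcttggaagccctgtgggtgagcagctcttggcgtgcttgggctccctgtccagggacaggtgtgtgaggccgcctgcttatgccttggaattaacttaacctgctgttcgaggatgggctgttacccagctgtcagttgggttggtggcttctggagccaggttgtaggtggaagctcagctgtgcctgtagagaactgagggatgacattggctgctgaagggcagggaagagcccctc
In Lect2 the match begins at base -31 from the start, read on the opposite strand. In Slc1a2 matches begin at bases -206, on the opposite strand, and -77. A match is a description of the letters in this window, and beta-catenin targets can be controlled from sites outside it.

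Nkd1 and Axin2 act inside the cell to limit Wnt signalling. Nkd1, an inhibitor that binds Dishevelled, lies at chr8:91045243-91118786 on the plus strand and was at 1.35, 1.07 and 1.96 FPKM in uninjected livers, the lowest mean of the 10 genes there (1.46 ± 0.46 FPKM). At day 21 it was at 2.35, 1.64 and 1.27 FPKM, which overlaps. At day 45 the mice had 2.78, 3.72 and 2.75 FPKM and at days 100 and 200 they had 3.66 and 2.79 FPKM, all above the uninjected mice. Knockout livers, with 1.79, 2.14 and 1.82 FPKM, overlapped the uninjected range.

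The mean of Nkd1 was 2.11 times the uninjected mean at day 45 and 2.21 times in the late livers. On the log2(FPKM + 1) scale, which understates changes of a gene this low, the difference was 0.74 ± 0.18 at day 45 (adjusted p = 0.0107), 0.79 ± 0.21 in the late livers (adjusted p = 0.0113) and 0.26 ± 0.18 in the knockout (adjusted p = 0.276). Relative to the median gene the day 45 change was 0.54. The call depended on the scaling: it was lost at day 45 under median centring (0.45, adjusted p = 0.0661) and quantile normalization (0.22, adjusted p = 0.311), and in the late livers under the same 2 settings (0.37 and 0.04). It was also lost at day 45 without uninjected B (0.62, adjusted p = 0.0514) or day 45 B (0.63, adjusted p = 0.0540). Within libraries without Ddx3y the day 45 ratio was 1.96, and between those with it 2.58.

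Axin2, a scaffold of the complex that destroys beta-catenin and the most widely used target gene of the pathway, lies at chr11:108781663-108812095 on the plus strand. It was at 2.18, 2.09 and 2.99 FPKM in uninjected livers, 3.12, 2.34 and 1.55 FPKM at day 21 and 3.26, 2.90 and 3.05 FPKM at day 45. The groups overlapped, although the day 45 mice were close together. The late livers, at 3.81 and 3.28 FPKM, lay above the uninjected mice, and the knockout had 1.19, 2.15 and 2.25 FPKM. No comparison with uninjected livers was called. Axin2 differed on the log2 scale by -0.05 ± 0.20 at day 21, by 0.26 ± 0.20 at day 45 (95% interval -0.17 to 0.69), by 0.42 ± 0.22 in the late livers (-0.07 to 0.90) and by -0.27 ± 0.20 in the knockout (-0.70 to 0.17). The difference at day 45 and in the late livers turned negative under median centring and quantile normalization (-0.03 and -0.21 at day 45, -0.0037 and -0.26 late), so no direction is given for it.

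**Figure D2:**
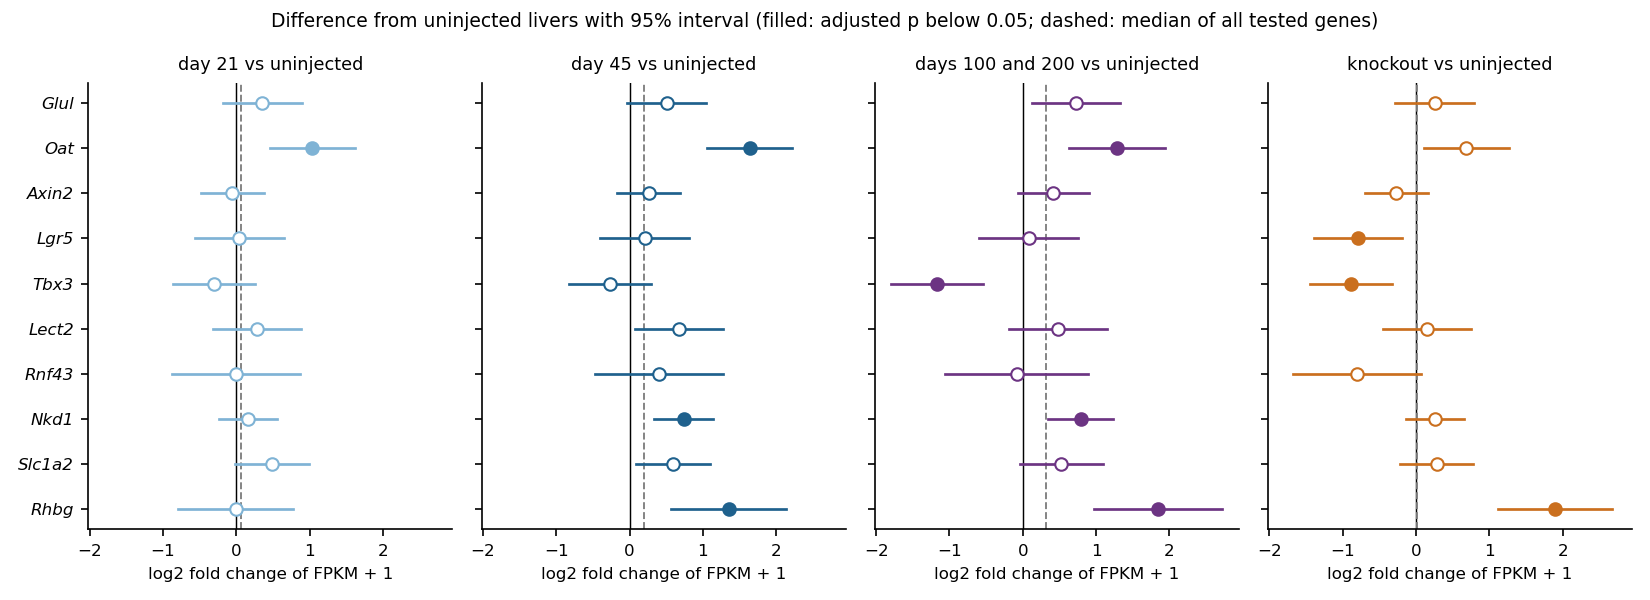
Log2 fold change of FPKM + 1 of the 10 genes against uninjected livers in the 4 comparisons. Points are estimates with 95% intervals, filled where the adjusted p is below 0.05, and the dashed line is the median of all 11354 tested genes. Filled points on the right of zero are Oat (days 21, 45 and late), Nkd1 (day 45 and late) and Rhbg (day 45, late and knockout), and on the left Tbx3 (late and knockout) and Lgr5 (knockout).

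Rnf43 and Lgr5 work at the cell surface in opposite directions. Rnf43, a ubiquitin ligase that removes Frizzled receptors (chr11:87476589-87549041, plus strand), was at 9.64, 6.67 and 11.9 FPKM in uninjected livers. Day 21 livers had 16.5, 9.37 and 4.72 FPKM, the widest spread of any group, and day 45 livers 14.2, 11.2 and 11.99 FPKM. The late livers had 10.7 and 6.89 FPKM. Knockout A and B, at 2.79 and 4.15 FPKM, lay below every other liver, whereas knockout C had 9.08 FPKM. With all 3 knockout livers the log2 fold change was -0.81 ± 0.40 (adjusted p = 0.133). Without knockout C it was -1.20 (adjusted p = 0.0163), and among the libraries without Ddx3y it was -1.41 (adjusted p = 0.00281), with a ratio of means of 0.32. Between the libraries with Ddx3y the ratio was 1.36, the other way.

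Lgr5, a receptor for R-spondins that marks the hepatocytes next to the central vein (chr10:114887370-115024836, minus strand), was likewise lowest in knockout A and B. It was at 2.76, 1.80 and 3.60 FPKM in uninjected livers, 3.69, 2.90 and 1.90 FPKM at day 21, 3.15, 3.56 and 2.92 FPKM at day 45, and 3.47 and 2.32 FPKM at days 100 and 200. These groups overlapped. Knockout A and B had 0.569 and 0.823 FPKM and knockout C had 2.27 FPKM, inside the uninjected range. The knockout mean was 0.45 times the uninjected mean, a log2 fold change of -0.79 ± 0.28 (adjusted p = 0.0454). The call held under 10 of 17 alternatives. It became -1.11 without knockout C and -1.30 (adjusted p = 0.000617) among libraries without Ddx3y, where the ratio of means was 0.22. Between the libraries with Ddx3y it was 1.26. In the injected mice the log2 fold change was 0.04 ± 0.28, 0.21 ± 0.28 and 0.08 ± 0.31 at day 21, day 45 and in the late livers, and all 3 turned negative under median centring and quantile normalization. The knockout call was lost without knockout A (-0.58, adjusted p = 0.183) or B (-0.69, adjusted p = 0.156), without uninjected A (-0.77, adjusted p = 0.0962) or C (-0.62, adjusted p = 0.150), with no filter (adjusted p = 0.0716), in the fit of 2 groups (adjusted p = 0.148) and with the replicate block (adjusted p = 0.0759).

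Tbx3, a transcription factor that beta-catenin turns on in the liver (chr5:120120678-120134610, plus strand), was called lower in the late livers and in the knockout. It was at 8.85, 10.8 and 10.6 FPKM in uninjected livers, 9.20, 9.91 and 5.49 FPKM at day 21 and 11.6, 7.40 and 6.25 FPKM at day 45, where the groups overlapped. The day 100 and day 200 livers had 4.92 and 3.08 FPKM and the knockout 4.33, 4.31 and 6.59 FPKM, all below the uninjected mice. The log2 fold change was -1.17 ± 0.29 in the late livers (adjusted p = 0.00838) and -0.88 ± 0.26 in the knockout (adjusted p = 0.0220), or 0.40 and 0.50 times the uninjected mean. In the late livers 1.11% of tested genes had a larger fall. The late call held under 14 of 15 alternatives and was lost without the day 200 liver (-0.90, adjusted p = 0.0934). The knockout call held under 13 of 17 (adjusted p = 0.00463 to 0.0888) and was lost without uninjected B (-0.83), uninjected C (-0.85), knockout A (-0.80) or knockout B (-0.795). Among libraries without Ddx3y the ratios were 0.41 and 0.44, and between those with it the knockout ratio was 0.61. Tbx3 and Rhbg ran in opposite directions: over the 14 livers their log2 levels had a Pearson r of -0.61, the lowest of the 45 pairs.

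**Figure D3:**
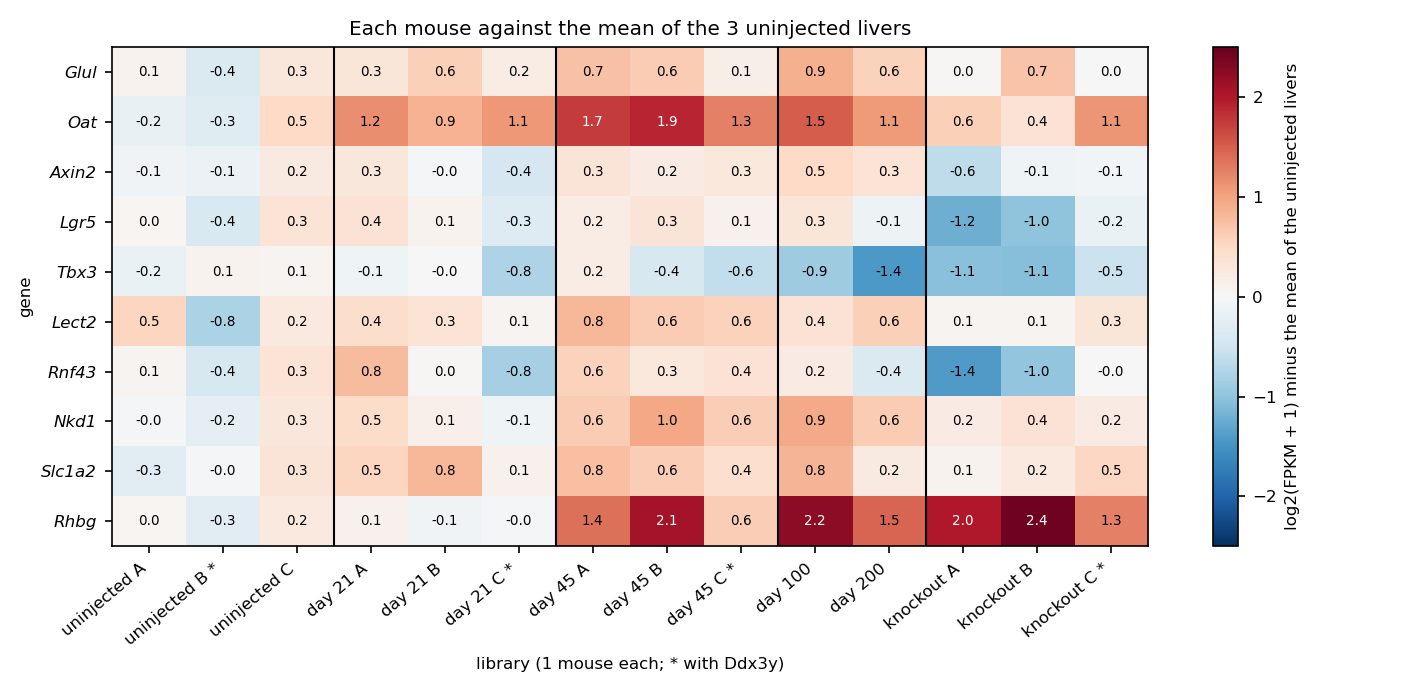
Log2(FPKM + 1) of the 10 genes in each library minus the mean of the 3 uninjected livers, with red for higher and blue for lower. Columns are single mice and asterisks mark the libraries with Ddx3y. Knockout A and B are low in Lgr5, Rnf43 and Tbx3, and knockout C is less so.

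Day 45 was also set against day 21. All 10 log2 fold changes were positive as scaled by the authors, although those of Glul, Lgr5, Tbx3 and Slc1a2 turned negative under median centring, with a median of 0.35 against 0.15 for all genes, but 0 of 10 members were called by limma, as were 0.273% of all genes. Higher levels at an unadjusted p below 0.05 were found for 3 members, against 14.9% of all genes. These were Rhbg (1.36 ± 0.36, adjusted p = 0.122), Nkd1 (0.58 ± 0.18, adjusted p = 0.159) and Oat (0.60 ± 0.27, adjusted p = 0.301). All 3 day 45 mice lay above all 3 day 21 mice for these genes and for Lect2, as was so for 27.9% of all genes. Among the libraries without Ddx3y, 2 per group, Rhbg was called (1.72, adjusted p = 0.0458). Less than 1% of tested genes (0.995%) rose more between these times than Rhbg did.

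The knockout was set against day 45, groups that differ in mouse line, in vector and in when miR-122 was lost, which cannot be told apart. Oat and Lgr5 were called lower in the knockout, with log2 fold changes of -0.95 ± 0.27 (adjusted p = 0.0472) and -0.996 ± 0.28 (adjusted p = 0.0454), and 0 members were called higher by limma, with 0 at an unadjusted p below 0.05 (4.45% of all genes). Of all genes, 8.23% were called lower and 1.21% higher, so that 12.8% of calls were higher, a share that became 52.2% under median centring. Rnf43 had the largest difference (-1.21 ± 0.40, adjusted p = 0.0655). For Oat, Axin2, Lgr5, Lect2, Rnf43 and Nkd1 all 3 knockout mice lay below all 3 day 45 mice, as was so for 20.6% of all genes in a comparison whose median gene was at -0.23. Rhbg was the only member with a positive difference (0.55 ± 0.36). Both calls were lost under median centring (Oat -0.68, adjusted p = 0.132, and Lgr5 -0.73, adjusted p = 0.114), with no filter, in the fit of 2 groups, with the replicate block, and when any 1 of the day 45 livers or knockout A or B was left out. Without knockout C 5 members were called lower (Oat, Axin2, Lgr5, Tbx3 and Rnf43), as were 37.5% of all genes, and among libraries without Ddx3y 6 were, with Lect2 added, against 36.0% of all genes.

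The members did not vary as 1 block. Over the 14 livers the Pearson r of log2 levels was highest for Lgr5 and Rnf43 (0.93), followed by Axin2 and Rnf43 (0.80), Oat and Nkd1 (0.79), Axin2 and Lgr5 (0.78) and Oat and Slc1a2 (0.78). Rhbg had a negative r with Lgr5 (-0.32) and Rnf43 (-0.27). The genes of the whole table closest to Glul were Fut8 (0.92), Ank2 (0.89), Abhd2 (0.88), Ppapdc1b (0.87) and Tbc1d1 (0.86). Closest to Axin2 were Cdan1 (0.94), Tmem144 (0.93), Dsg2 (0.91), Cds2 (0.91) and Ralgps1 (0.91). None of these 10 is a member or stood on a list used here. The values describe 14 livers that share groups, Ddx3y state and scaling.

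By level in uninjected livers, the order was Oat (526 ± 168 FPKM), Glul (385 ± 83.2), Lect2 (252 ± 106), Slc1a2 (48.2 ± 10.1), Tbx3 (10.1 ± 1.06), Rnf43 (9.39 ± 2.61), Rhbg (5.31 ± 1.12), Lgr5 (2.72 ± 0.90), Axin2 (2.42 ± 0.50) and Nkd1 (1.46 ± 0.46). The ranges of neighbours overlapped for Oat and Glul, Glul and Lect2, Tbx3 and Rnf43, and Lgr5 and Axin2, and the ranges of the other 5 pairs of neighbours did not overlap. By mean level Oat ranked 144, Glul 206 and Lect2 307 among all symbols.

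The other genes of the pathway were counted from lists. In bulk liver, fewer cells of a type and less RNA per cell cannot be told apart. Of 19 Wnt ligands 3 were tested. At day 45 Wnt2, made by central vein endothelium, rose from 2.34 to 5.07 FPKM (log2 fold change 0.89 ± 0.18, adjusted p = 0.00341) and Wnt4 from 0.474 to 2.11 FPKM (1.03 ± 0.35, adjusted p = 0.0471). Both calls were lost under quantile normalization, and under median centring 1 of the 3 tested ligands was called. Wnt4 was also called higher in the late livers (4.19 FPKM) and in the knockout (3.15 FPKM), and Wnt2 in neither (3.28 and 2.504 FPKM). The late call of Wnt4 was lost under quantile normalization (1.04, adjusted p = 0.0837). Rspo3, the only R-spondin tested, was at 2.89 FPKM in uninjected livers and 4.41 FPKM at day 45. With all libraries as scaled by the authors, it was not called against uninjected livers. In the knockout it was called lower without knockout C (-0.58) and among libraries without Ddx3y (-0.60). Late, it was called higher among libraries without Ddx3y (0.47). Against day 45 it was called lower in the knockout (-0.80), a call lost under median centring and quantile normalization. Markers of central vein endothelium, a list that holds Wnt2, Wnt9b and Rspo3 themselves, summed to 7.57 to 11.2 FPKM in uninjected livers, 15.0 to 18.0 at day 21, 19.7 to 24.9 at day 45, 19.3 to 22.5 late and 11.6 to 14.9 in the knockout, and their part in these rises was not tested. Of the 5 of these markers that were tested, 3 were called higher at day 45 (23.7% of all genes). The count was 1 under median centring (12.3%), 0 under quantile normalization (9.66%) and 4 among libraries without Ddx3y (24.7%).

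With all libraries as scaled by the authors, the counts at day 45 that follow stand against 23.7% of all tested genes called higher and 2.99% lower. A list near these shares does not differ from the table by its count. Other settings have other shares, which are given with their counts. Of 10 tested Wnt receptors, 2 were called higher, Fzd1 (2.32 to 5.45 FPKM) and Fzd6 (1.37 to 2.53 FPKM), and 8 were not. Among 6 tested inhibitors that act outside the cell or at its surface, 3 were higher at day 45, in the late livers (28.4% of all genes) and in the knockout (19.3%): Dkk3 (0.746 to 5.18 FPKM at day 45, log2 fold change 1.71 ± 0.31), Frzb (0.654 to 3.19 FPKM) and Sfrp1 (0.340 to 1.09 FPKM). Late, quantile normalization left 2 higher (Dkk3 and Frzb) and made 1 lower (Znrf3), against 11.3% and 11.5% of all genes. In the knockout 3 were higher and 1 lower (Znrf3) without knockout C (31.7% and 30.7%). With only libraries without Ddx3y, 3 were higher and 2 lower in the knockout (28.6% and 28.8%). Notum and Znrf3, inhibitors that the pathway itself turns on, were not called at day 45 (26.4 to 28.3 and 1.98 to 2.80 FPKM). Of the 13 genes of beta-catenin and its destruction complex only Ctnnb1, beta-catenin itself, was called higher at day 45 (102 to 164 FPKM, 0.67 ± 0.20, adjusted p = 0.0254). Of 11 tested TCF/LEF factors and cofactors 4 were higher, Tle3, Bcl9 and Bcl9l with the largest rises (1.21, 0.72 and 0.68). Under median centring 12.3% of all genes were higher at day 45 and 8.17% lower. There none of the receptors and neither Ctnnb1 nor any other gene of its list passed, and the cofactors gave 1 higher and 1 lower. Under quantile normalization 2 receptors were lower and 0 higher, and the cofactors gave 1 higher and 2 lower, against 9.66% of all genes higher and 8.06% lower. At day 45 the inhibitors gave 2 higher under median centring and 1 under quantile normalization, and the ligands 1 and 0. Among libraries without Ddx3y 0 receptors and 3 cofactors were higher at day 45 (24.7% of all genes). In the knockout 0 receptors were higher and 1 lower, and 0 and 5 without knockout C. The list of beta-catenin and its destruction complex gave 1 higher and 0 lower in the knockout, and 2 and 5 without knockout C. Of all genes, 19.3% were higher and 14.5% lower in the knockout, and 31.7% and 30.7% without knockout C.

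Of 8 tested general Wnt targets other than the members, 5 were higher at day 45 and 0 lower, against 23.7% and 2.99% of all genes. Their median log2 fold change was 0.91 against 0.20 for all genes. Under median centring 4 were higher and 0 lower (12.3% and 8.17% of all genes), and under quantile normalization 3 and 0 (9.66% and 8.06%). With only libraries without Ddx3y, 4 were higher and 0 lower (24.7% and 4.74%). The largest rises were those of Ccnd1, a cyclin of the G1 phase (31.3 to 208 FPKM, 2.92 ± 0.51, adjusted p = 0.00177), Myc, a growth-promoting transcription factor (0.940 to 8.25 FPKM, 2.25 ± 0.35, adjusted p = 0.00112), and Cd44, a cell surface receptor (2.75 to 8.27 FPKM, 1.31 ± 0.26, adjusted p = 0.00314). Of the members that are targets too, Nkd1 was called higher there, a call lost under median centring, under quantile normalization and without uninjected B or day 45 B, and Axin2, Lgr5 and Rnf43 were not called. Markers of other cells moved with them. All 5 tested cholangiocyte markers were higher at day 45, with sums of 46.1 to 59.3 FPKM in uninjected livers and 405 to 1332 at day 45, and Sox9 stood on both lists. So were 8 of 9 stellate and fibroblast markers (141 to 192 and 373 to 604 FPKM), 6 of 6 macrophage markers (162 to 279 and 567 to 662), 6 of 6 lymphocyte markers (2.52 to 6.47 and 15.7 to 22.6), 4 of 4 proliferation markers (1.45 to 6.30 and 10.8 to 20.5) and 2 of 7 liver endothelial markers (89.8 to 155 and 184 to 189). Under median centring 5 cholangiocyte, 7 stellate, 4 macrophage, 3 lymphocyte and 3 proliferation markers were higher, and under quantile normalization 4, 6, 6, 1 and 1. In the libraries without Ddx3y these counts were 5, 8, 5, 6 and 3. The shares of all genes called higher in these settings are those given above for the general targets. The part of these cells in the list results was not tested. No marker of these lists was at 0 in all libraries of a group. Of the 8 hepatocyte markers, Hnf4a was at 173 to 219 FPKM in the group means and was not called. Apoa2, an apolipoprotein, was called lower at day 45 (17352 to 9400.03 FPKM, -0.88, adjusted p = 0.0411) and in the late livers (-1.15), Apoa1 in the late livers (-0.94) and Apob in the knockout (-1.80). Of the 7 tested hepatocyte markers, 1 was called higher and 1 lower in the knockout, against 19.3% and 14.5% of all genes. The calls of Apoa1 and Apoa2 were lost under quantile normalization (adjusted p = 0.0533 to 0.405). Alb was listed at 0 in all libraries, Trf in 11, all day 45 and late libraries among them, and Serpina1a in all uninjected, day 21 and day 45 libraries, as can happen where an estimate fails, so the sum of this list is not compared between groups.

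The count of the 26 other pericentral hepatocyte genes depended on the scaling. At day 45, 8 were called higher, 1 lower and 17 neither, against 23.7% and 2.99% of all genes called higher and lower, with a median log2 fold change of 0.27 against 0.20 for all genes, and under median centring 4 were higher and 3 lower (12.3% and 8.17% of all genes). Under quantile normalization 9 were higher and 0 lower (9.66% and 8.06% of all genes), with a median of 0.39 against -0.09. Gstm3, a glutathione transferase, rose from 23.4 to 483 FPKM (4.08 ± 0.50, adjusted p = 0.000362), Slc13a3, a dicarboxylate transporter, from 8.54 to 55.8 FPKM (2.62 ± 0.44) and Cyp2a5, a cytochrome P450, from 199 to 909 FPKM (2.26 ± 0.46), and all 3 were also called in the late livers and the knockout. Gstm3 has near-identical relatives among which reads may be divided. Cyp27a1, a bile acid enzyme, was the gene called lower (381 to 259.8 FPKM, -0.58 ± 0.19), a call lost under quantile normalization (-0.44). Among libraries without Ddx3y 8 were higher and 4 lower at day 45 (24.7% and 4.74% of all genes). In the late livers 4 were higher and 2 lower, against 28.4% and 3.21% of all genes, with a median of 0.06 against 0.31. Under median centring 3 were higher and 5 lower there (13.5% and 11.6% of all genes), with a median of -0.36 against -0.11. Quantile normalization gave 5 higher and 2 lower there (11.3% and 11.5%), with a median of 0.12 against -0.12. With only libraries without Ddx3y, 7 were higher and 8 lower late (33.9% and 5.68%). In the knockout 6 were higher and 7 lower, against 19.3% and 14.5% of all genes, and without knockout C 8 were higher and 11 lower, against 31.7% and 30.7%.

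Periportal genes were called lower more often than higher at day 45 and after. Of 24 tested, 6 were called lower and 2 higher at day 45 (median -0.42), 7 lower and 2 higher in the late livers (-0.58, against 0.31 for all genes) and 10 lower and 1 higher in the knockout (-0.76), or 12 and 4 without knockout C. Of all genes, 2.99% were called lower and 23.7% higher at day 45, 3.21% and 28.4% in the late livers and 14.5% and 19.3% in the knockout, or 30.7% and 31.7% without knockout C. At day 21 there was 1 each way. Under median centring 8 were lower and 0 higher at day 45 and 12 and 1 late, and under quantile normalization 4 were lower and 1 higher at day 45 and 6 and 1 late. Of all genes, 8.17% (day 45) and 11.6% (late) were lower under median centring, and 8.06% and 11.5% under quantile normalization. The largest falls at day 45 were those of G6pc, the last enzyme of gluconeogenesis (396 to 62.4 FPKM, -2.59 ± 0.59, adjusted p = 0.00654), Pigr, the receptor that carries antibodies into bile (501 to 122 FPKM, -2.08 ± 0.36), and Hal, which starts histidine breakdown (157 to 42.6 FPKM, -1.85 ± 0.36). Slc7a2, a transporter of cationic amino acids, and Cdh1, the adhesion protein E-cadherin that bile duct cells also make, were higher (0.95 each). Under median centring both calls were lost, and that of Cdh1 also under quantile normalization and among libraries without Ddx3y. In those libraries 8 periportal genes were lower and 1 higher at day 45 (4.74% and 24.7% of all genes).

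**Figure D4:**
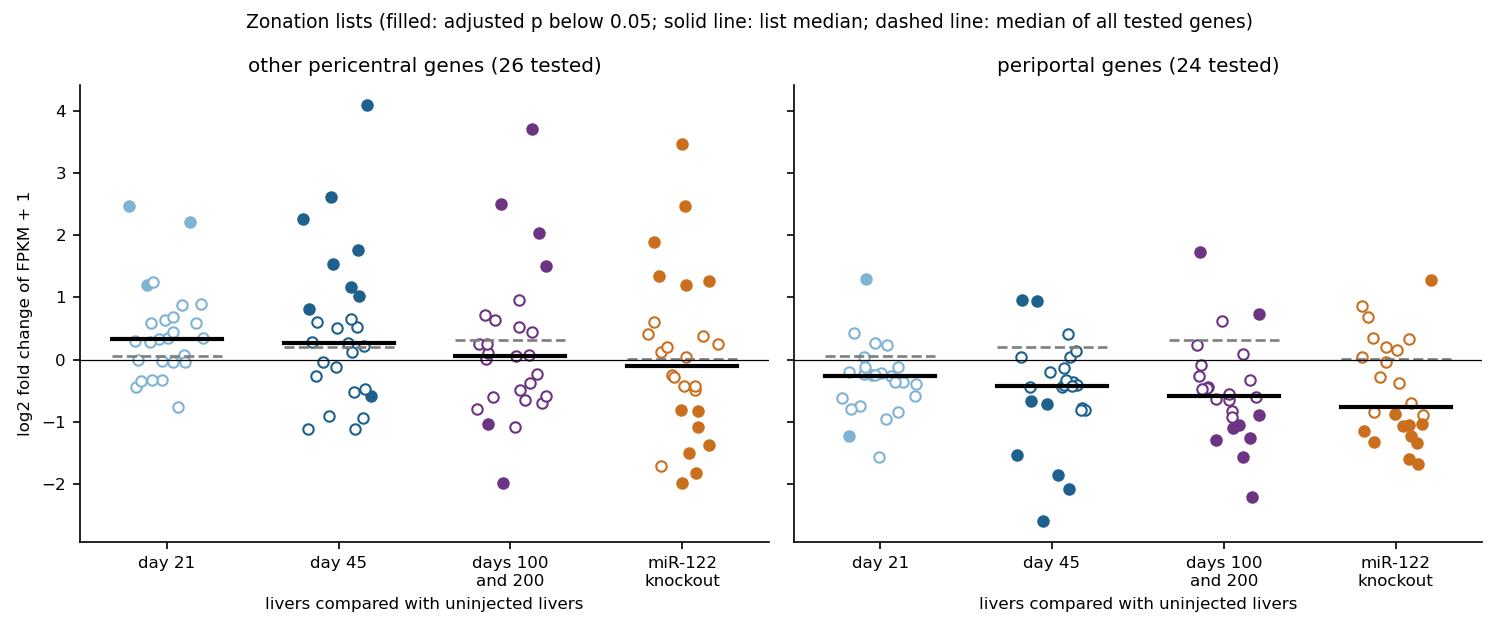
Log2 fold change of FPKM + 1 against uninjected livers for the 26 other pericentral and the 24 tested periportal genes. Each point is 1 gene, filled where the adjusted p is below 0.05, solid lines are list medians and dashed lines the median of all tested genes. The periportal median lies below the dashed line in all 4 comparisons (-0.26, -0.42, -0.58 and -0.76). The pericentral median lies below it in the late livers and the knockout (0.06 and -0.10).

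Genes that handle ammonia and glutamine beside the members were counted too. Of 11 tested, 3 were higher and 1 lower at day 45, against 23.7% and 2.99% of all genes. Under median centring 1 was higher and 1 lower (12.3% and 8.17% of all genes), and under quantile normalization 2 and 1 (9.66% and 8.06%). In the libraries without Ddx3y 3 were higher and 2 lower (24.7% and 4.74%). The gene that fell was Gls2, the liver glutaminase of periportal cells that releases ammonia from glutamine, opposite to what Glul does (146 to 49.8 FPKM, -1.53 ± 0.27, adjusted p = 0.00181). It was called lower at day 21 (-1.23), in the late livers (-1.05) and in the knockout (-1.15) as well, and the day 21 call was lost among libraries without Ddx3y (-1.14, adjusted p = 0.0745). Slc1a4, a neutral amino acid transporter, rose from 2.74 to 13.7 FPKM (2.05 ± 0.34), Aldh18a1, which turns glutamate toward proline and ornithine, from 0.607 to 2.18 FPKM (0.97 ± 0.30, lost under median centring and quantile normalization), and Slc7a2 stood on this list too.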

How the data were processed

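Liver RNA was poly-A selected, made into TruSeq libraries and read in pairs. The authors aligned the reads to mm9 with TopHat and deposited one FPKM value per gene and mouse from Cufflinks 2.2.1, with its quartile scaling of libraries and after removal of ribosomal, snoRNA and mitochondrial reads. Since FPKM are not counts, values were tested on a log scale. Effective depth was estimated from the smallest steps of 7454 single-transcript genes. For microRNAs the authors used Bowtie 0.12.7 and deposited RPM with 1 added, which was subtracted here. These RPM served only for the miR-122 share, in 11 of 42 libraries; whether they come from the same mice as the RNA-seq was not stated.

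The 22308 rows were summed to 21888 symbols, 224 of which had more than 1 row. Low genes were dropped below a mean of 1 FPKM, which left 11354, with all 10 members among them. These were fitted with limma 3.58.1 in R 4.3.3 on log2(FPKM + 1), with 5 groups and eBayes with trend, and Benjamini-Hochberg adjustment was made per comparison. Each library is a different mouse. The script was tested on simulated data. Alternatives were other pseudocounts (0.1 and 0.5), filters and scalings, a fit of 2 groups, a replicate block, no trend, and leaving out each library. A term for Ddx3y, the 10 libraries without it, and repeats of the list and marker counts were added after seeing the data.

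All 10 members are named. Of each of 10 gene lists, those called at day 45 are named, up to 3 in each direction by size of change, and for Glul and Axin2 the 5 genes with the highest Pearson r. Notum, Znrf3, Rspo3, Hnf4a, Apoa1, Apoa2, Apob, Alb, Trf, Serpina1a and Aldoa were named after their values were seen. Members and lists were chosen with earlier results of these data known. In the lists, 4 symbols were matched through older names. Promoters are from RefSeq. Python 3.11.15, numpy 2.4.6, pandas 2.3.3 and matplotlib 3.10.9 were used.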

Additional observations from a re-analysis of the deposited data

Results flagged for a closer look

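Between the knockout and day 45, 2 of the 10 genes differed by the test of that difference, where 8.23% of all tested genes were called lower and 1.21% higher. Oat differed by -0.95 ± 0.27 on the log2 scale (SE, limma adjusted p = 0.0472 and 0.00306 to 0.211 over 17 alternatives), with knockout mice at 656 to 1103 FPKM and day 45 mice at 1229 to 1909 FPKM. Lgr5 differed by -0.996 ± 0.28 (adjusted p = 0.0454, 0.000707 to 0.19995 over 17 alternatives), with knockout mice at 0.569 to 2.27 FPKM and day 45 mice at 2.92 to 3.56 FPKM. All 3 knockout mice lay below all 3 day 45 mice for both genes, as was so for 20.6% of all genes, and knockout C was the highest of its group in both. The call of Oat held under 8 of 17 alternatives and that of Lgr5 under 7 of 17. Both were lost under median centring (Oat -0.68, limma adjusted p = 0.132, and Lgr5 -0.73, adjusted p = 0.114) and when any 1 of the day 45 livers or knockout A or B was left out. The mouse line, the vector and the time of loss differ between these groups and cannot be told apart.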

How the results depend on the processing

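Of 1000 values of single members under alternatives, 887 kept their direction and their side of the threshold, 52 lost a call, 14 gained one and 47 changed sign, and every one that changed sign had not been called. The number of members called at day 21 (1) became 0 with no filter on low values, median centring, quantile normalization, or only libraries without Ddx3y, and was 0 to 1 when a library was left out. With a library left out it was 1 to 4 at day 45 (3 with all; 1 without uninjected B or day 45 B), 1 to 4 in the late livers (4 with all; 1 without the day 100 liver) and 1 to 4 in the knockout (3 with all; 1 without A or B, 4 without C). A lone late liver was assumed to vary like the other groups. For day 45 against day 21 (0) it was 1 with only libraries without Ddx3y. For the knockout against day 45 (2) it was 0 with no filter, median centring or the fit of 2 groups, 1 with quantile normalization, 6 with only libraries without Ddx3y, and 0 to 5 when a library was left out. The cause of these changes was not tested.

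With the letters A, B and C as a replicate block, 0 members were called at day 21 and 0 for the knockout against day 45, and 3 at day 45 and 2 in the knockout, where Lgr5 was lost (adjusted p = 0.0759). The letters name different mice. Deviations of same-letter libraries correlated at -0.45 to 0.50, above 0.1 in 8 of 18 pairs, so the pairing was not taken up. No block could be fitted for the late livers.

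Under median centring, changes of sign against uninjected livers were Lgr5 at day 21 (-0.062), Axin2 (-0.026) and Lgr5 (-0.082) at day 45, and Axin2 (-0.0037) and Lgr5 (-0.34) in the late livers. Against day 21, day 45 gave Glul -0.029, Lgr5 -0.020, Tbx3 -0.15 and Slc1a2 -0.073, and the knockout against day 45 gave Glul 0.015. Under quantile normalization they were Lgr5 (-0.17) and Nkd1 (-0.094) at day 21, Axin2 (-0.21) and Lgr5 (-0.26) at day 45, and Axin2 (-0.26) and Lgr5 (-0.63) late, with Lgr5 -0.091, Tbx3 -0.17 and Slc1a2 -0.0027 for day 45 against day 21. With only libraries without Ddx3y they were Axin2 (0.060), Lect2 (-0.0027) and Rnf43 (0.20) at day 21, Lgr5 late (-0.11), Lect2 in the knockout (-0.32) and Tbx3 for day 45 against day 21 (-0.035). Leaving out a library gave ranges that crossed 0 at day 21 for Axin2 (-0.22 to 0.13), Lgr5 (-0.15 to 0.23), Lect2 (-0.11 to 0.56), Rnf43 (-0.40 to 0.41) and Rhbg (-0.15 to 0.11), late for Lgr5 (-0.13 to 0.29) and Rnf43 (-0.36 to 0.20), in the knockout for Lect2 (-0.24 to 0.42), and for day 45 against day 21 for Lgr5 (-0.025 to 0.32), Tbx3 (-0.20 to 0.20), Rnf43 (-0.0047 to 0.80) and Slc1a2 (-0.084 to 0.28).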
